A study of Mus musculus with 12 samples.

Results

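The lower tiles are stretches of the mouse genome that were partly methylated in the left ventricle of weanlings and less methylated in the offspring of mothers on a high-fat diet (HFD) than in those of mothers on a regular diet (RD). A tile was a window of 500 bp, and its level was the mean methylation of the CpG sites measured in it. Tiles on the 19 autosomes were kept when they had at least 3 sites with a value in all 12 samples and a mean over the 12 samples of 20 to 80%, and these are called intermediate. A lower tile was an intermediate tile whose mean over the 6 HFD samples was at least 8 percentage points below its mean over the 6 RD samples. There were 397 lower tiles among 9031 intermediate tiles (4.4%), and 38449 autosomal tiles had 3 or more sites. A difference of at least 8 points in the other direction was found in 137 intermediate tiles (1.52%). The lower tiles were thus chosen by their measured diet difference, which is given for them as a description with no test.

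Methylation of the cytosine in a CpG is copied to the new strand when DNA replicates, so that a pattern can be kept through many cell divisions. Most CpGs of a mammalian genome are either nearly free of methylation, as at active CpG-rich promoters, or nearly fully methylated. A level between these extremes means that cells, alleles or single molecules within the sample differ. Imprinted genes are a known case: a control region is methylated on the chromosome from 1 parent only, which silences or activates neighbouring genes according to parental origin. In a bulk tissue such as the ventricle, regulatory regions that are open in 1 cell type and closed in another are also read as intermediate.

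Reduced representation bisulfite sequencing (RRBS), in which DNA is cut at CCGG by MspI and treated so that only methylated cytosines are still read as C, was applied to 12 wild-type FVB/N offspring aged 3 weeks. The mothers received the HFD (Teklad TD.06415) or the RD (PicoLab 5L0D) from 6 weeks of age, were mated after 8 weeks of the diet to males on RD, and stayed on it. All offspring were assigned to RD from weaning. The HFD offspring were 3 females (numbered 2, 3 and 4) and 3 males (2, 3 and 4), and the RD offspring were 4 females (1 to 4) and 2 males (1 and 2). The number of mothers is not given in the labels, so littermates may be among the 6 of a diet. HFD libraries were numbered between 2 and 8, RD libraries between 9 and 14; any effect of that order and the diet of the mother cannot be told apart. Between 385299 and 417081 of the 421177 sites had a value in a sample. The table holds percentages without read counts, which leaves the depth unknown and allows no counting interval. A lower level in a bulk sample can come from less methylation within a cell type or from a different mix of cell types, and these cannot be told apart here.

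Sequences are shown for 5 lower tiles that reach into the 300-base window at an annotated gene start (250 bases before the start and 50 after it, RefSeq, GRCm38.p6), because there the measured CpGs can be placed in a promoter. Of the 388 lower tiles on chromosomes with windows in the RefSeq table, 16 had sites in a window, and these 5 were chosen after their values had been seen: 3 at imprinted genes, and Rgs3 and Cavin4. The bases are written 5′ to 3′ on the strand of the gene, with the CpGs measured in all 12 samples in capitals.
Commd1, chr11:22972817-22973116, minus strand: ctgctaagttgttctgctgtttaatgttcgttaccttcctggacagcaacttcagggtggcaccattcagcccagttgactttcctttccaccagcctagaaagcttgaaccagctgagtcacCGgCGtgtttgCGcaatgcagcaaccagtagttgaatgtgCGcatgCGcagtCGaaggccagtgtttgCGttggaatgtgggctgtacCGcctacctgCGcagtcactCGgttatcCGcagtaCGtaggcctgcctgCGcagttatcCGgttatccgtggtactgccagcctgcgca
Plagl1, chr10:13090582-13090881, plus strand: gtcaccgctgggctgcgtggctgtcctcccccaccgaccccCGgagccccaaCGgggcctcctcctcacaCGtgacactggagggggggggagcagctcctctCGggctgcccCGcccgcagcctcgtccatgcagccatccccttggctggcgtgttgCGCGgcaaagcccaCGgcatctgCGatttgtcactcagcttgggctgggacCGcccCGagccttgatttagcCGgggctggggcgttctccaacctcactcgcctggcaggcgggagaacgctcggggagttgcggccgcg
Snrpn, chr7:60005150-60005449, minus strand: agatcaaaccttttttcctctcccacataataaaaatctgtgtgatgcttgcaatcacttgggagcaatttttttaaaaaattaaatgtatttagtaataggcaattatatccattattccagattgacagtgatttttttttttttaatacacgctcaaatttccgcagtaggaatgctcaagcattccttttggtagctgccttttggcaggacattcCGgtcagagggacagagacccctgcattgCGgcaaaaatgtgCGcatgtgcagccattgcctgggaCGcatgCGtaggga
Rgs3, chr4:62619422-62619721, plus strand: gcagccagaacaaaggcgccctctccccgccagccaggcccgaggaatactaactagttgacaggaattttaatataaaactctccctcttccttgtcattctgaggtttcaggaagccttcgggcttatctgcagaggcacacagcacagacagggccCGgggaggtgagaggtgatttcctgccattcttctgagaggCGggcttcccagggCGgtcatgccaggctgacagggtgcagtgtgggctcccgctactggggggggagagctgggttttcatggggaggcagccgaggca
Cavin4, chr4:48663264-48663563, plus strand: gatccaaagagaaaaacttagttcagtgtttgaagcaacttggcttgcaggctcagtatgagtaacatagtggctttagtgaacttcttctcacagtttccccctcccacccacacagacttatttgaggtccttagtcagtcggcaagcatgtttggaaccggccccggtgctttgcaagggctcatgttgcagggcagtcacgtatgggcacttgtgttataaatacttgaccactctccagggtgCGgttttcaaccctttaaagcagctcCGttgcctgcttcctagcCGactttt

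In the Commd1 window 14 of 17 CpGs were measured, in 15 table rows because 1 CpG was listed on both strands, and their mean was 57.1% ± 5.98 in HFD and 82.1% ± 3.29 in RD (SD, n = 6 each). All 12 sites of the Plagl1 tile lay in its window, which has 26 CpGs and is shared but for 13 bases at each end with that of Hymai, a noncoding RNA of the same imprinted promoter. The Snrpn window, which RefSeq also gives for Snurf, had 5 measured CpGs of 7, at 30.5% ± 10.2 in HFD and 53.2% ± 10.02 in RD. The letters TGCCGC, which the imprint-keeping protein ZFP57 binds when its CpG is methylated, were looked for on either strand. They were found in the Snrpn window, in the overlapping Plagl1 and Hymai windows and in that of the germ-cell gene Boll. No other window with sites of a lower tile held them, among these the Commd1, Zrsr1, Rgs3 and Cavin4 windows. Of all 32851 windows in the RefSeq table, 11.6% hold these letters on either strand, and 52.8% hold CCGG, the site that MspI cuts. The Rgs3 and Cavin4 windows had 9 and 7 CpGs, of which 3 were measured in each.

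Across the lower tiles the HFD samples sat close together. The mean over the 397 tiles was 41.7 to 44.2% in the 6 HFD samples (42.6% ± 0.970, SD) and 50.9 to 56.0% in the 6 RD samples (53.9% ± 2.07, SD). Both the separation and its sign follow from the rule. Over the other intermediate tiles the same samples had 57.8% ± 0.175 (HFD) and 58.1% ± 0.456 (RD). RD female 1, RD female 2 and RD male 2 were the highest 3 samples in both sets, at 55.5 to 56.0% over the lower tiles. RD male 2 was the highest RD sample in 106 of the 397 tiles, and RD female 4 was the lowest in 112.

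**Figure D1:**
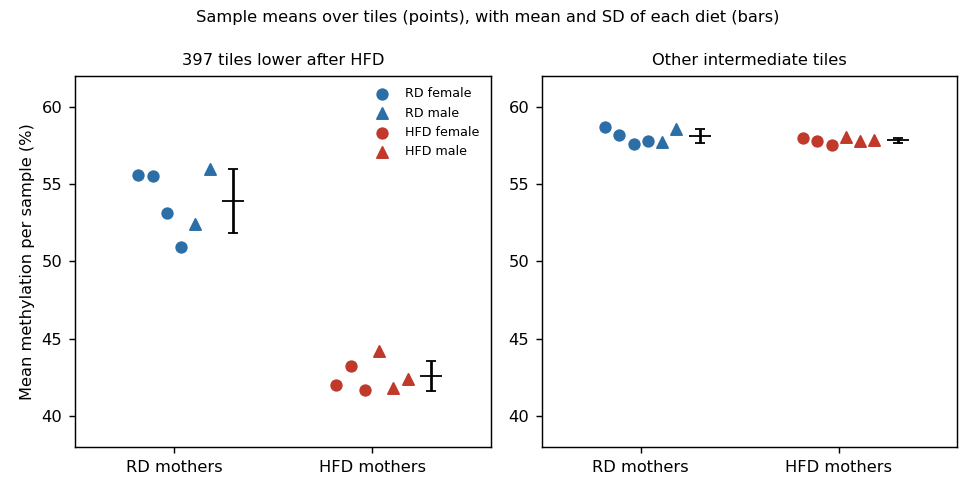
Mean methylation in percent of each sample over the 397 lower tiles (left) and over the other intermediate tiles (right). Circles are females, triangles males, and the bars give the mean and SD of each diet (n = 6). Over the lower tiles the HFD samples lie at 41.7 to 44.2% and the RD samples at 50.9 to 56.0%, a gap that the rule makes, while over the other tiles both diets lie near 58%.

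The median difference of a lower tile, HFD minus RD, was -10.1 percentage points, and the quartiles were -12.4 and -8.74. It was 10 points or more in 200 tiles, 15 or more in 51 and 20 or more in 13. The median RD level was 53.8% and the median HFD level 41.9%, against 61.9% and 61.4% over all intermediate tiles. The median SD between animals of 1 diet was 6.50 points in RD and 6.84 in HFD, against 4.56 and 4.58 over all intermediate tiles. All 6 HFD samples were below all 6 RD samples in 54 of the 397, and in 72 of the 9031 intermediate tiles (0.797%). The rule favours such tiles, so nothing is read from the difference between these shares. In 195 of the 397 tiles the difference was 8 points or more in every one of the 12 runs that left out a single sample. The limit itself falls in a continuous range. The 3 tiles just inside it lay at Ank2, 4534 bp from the nearest gene on chromosome 12 and at Sdk2, with differences of -8.03, -8.01 and -8.01 points, and the 3 just outside at -8.00, -7.99 and -7.98.

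The diets were relabelled in every way that keeps the number of HFD and RD animals in each sex, and the rule was applied again. This gave 349 other arrangements, in which 68 to 341 tiles were lower in the animals labelled HFD, with a median of 123, against 397 with the labels as given. The count in the other direction, 137, lay within its range of 64 to 351, and 143 of the 349 arrangements reached it. Without overlap there were 72 tiles with the true labels and 2 to 32 otherwise. Arrangements that kept 5 of the 6 HFD animals gave 208 to 341 lower tiles and those that kept 4 gave 111 to 248. The counts are descriptions of these 12 animals, since the arrangements share animals with each other.

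**Figure D2:**
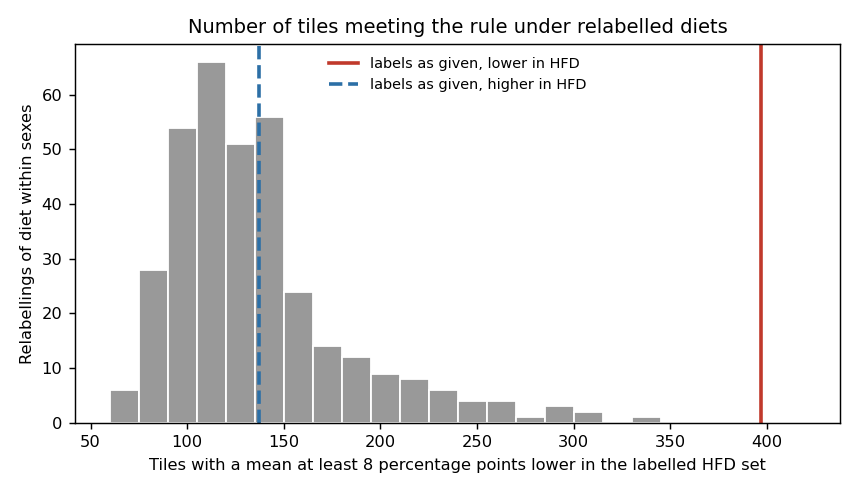
Number of intermediate tiles at least 8 percentage points lower in the animals labelled HFD (horizontal axis) over the relabellings of diet within the sexes (vertical axis, number of relabellings). The solid line marks the 397 lower tiles with the labels as given and the dashed line the 137 higher tiles; the other arrangements gave 68 to 341.

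The same picture held for a limit of 10 points, with 200 tiles against 15 to 149, for 15 points, with 51 against 0 to 38, and for tiles with 5 or more sites, with 114 against 8 to 95. It differed for tiles with 10 or more sites: 21 were lower, while other arrangements gave 0 to 37 and 26 of the 349 gave 21 or more. Without overlap, 8 tiles with 10 or more sites were lower, and 0 to 5 in the other arrangements. The count also depended on the mean level of each sample over the intermediate tiles. That mean includes the lower tiles, so subtracting it also removes part of the difference that the rule chose. Over the other intermediate tiles the diets differed by -0.26 points. After each sample's mean over the intermediate tiles was subtracted, 297 tiles were lower and 187 higher, so that lower tiles were 61.4% of those past the limit in place of 74.3%. The other arrangements then gave 85 to 252 lower and 92 to 279 higher tiles, and 16 of the 349 gave 187 or more higher tiles. Without RD female 1, RD female 2 and RD male 2, 391 tiles were lower and 242 higher (61.8% lower), and 251 of the original 397 still met the rule.

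The lower tiles held few sites, as did intermediate tiles in general, with a median of 4 sites in both. There were 185 lower tiles with 3 sites (46.6%, against 43.6% of all intermediate tiles), 98 with 4, 93 with 5 to 9 and 21 with 10 or more (5.29% against 4.87%). Of their 1869 sites 97.4% were lower in HFD, against 54.6% of the sites of all intermediate tiles, and in 364 tiles every site was. The rule used the mean of these sites, so this share largely follows from it. Sites with a missing value in some samples were not used by the rule, although they come from the same animals and often the same reads. In the lower tiles 144 of 192 such sites (75%) were lower in HFD, against 50.8% of those in all intermediate tiles. When the grid was moved by 250 bp, 371 lower tiles had a counterpart with at least 3 sites, and 326 of these were lower by 8 points or more. Such a counterpart shares sites and samples with the tile that the rule chose, so this shows only how far the count depends on the grid.

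The lower tiles were found on all 19 autosomes and mostly inside genes. They made up 3.01% (chromosome 18) to 7.04% (chromosome 6) of the intermediate tiles of a chromosome. Inside an annotated gene lay 301 of the 397 (75.8%), against 67.8% of all intermediate tiles. Within 1 kb of either end of a gene lay 82 (20.7% against 17.1%), inside a gene but farther from its ends 228 (57.4% against 53.8%), and outside genes and over 1 kb from any end 87 (21.9% against 29.2%). Of 388 lower tiles on chromosomes with annotated starts in the RefSeq table, 45 were within 1 kb of a start (11.6% against 8.43%). Exons, introns and UTRs are not marked in the gene table used, so no tile is assigned to one. The share varied more with the level than with the place: 6.93% of tiles with a mean of 20 to 40% and 7.04% of those at 40 to 60% were lower tiles, against 2.08% of those at 60 to 80%. Tiles higher by 8 points or more were 31 of 1862, 53 of 2400 and 53 of 4769 in these ranges. Their share was thus also lowest at 60 to 80%, so this is not particular to the lower tiles.

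**Figure D3:**
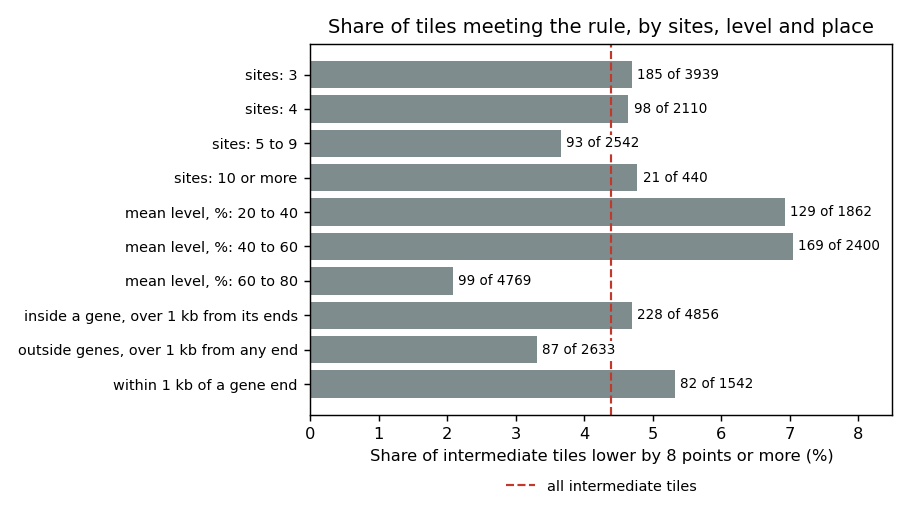
Share of intermediate tiles that met the rule (horizontal axis, percent), split by the number of sites, the mean level over the 12 samples and the place relative to genes. The dashed line is the share over all intermediate tiles, 4.4%, and the numbers are lower tiles of intermediate tiles. The bars at 20 to 40% and 40 to 60% stand highest, at 6.93 and 7.04%, and the bar at 60 to 80% lowest, at 2.08%.

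Within 1 kb, 73 lower tiles had a neighbour with 3 or more sites, and 58 of these 84 neighbours (69.0%) were lower in HFD, against 54.1% of neighbours of all intermediate tiles. Of the neighbours that were not lower tiles themselves, 46 of 72 (63.9%) were lower, against 52.9%, and their median difference was -1.02 points. Of the 84 neighbours, 12 were lower tiles themselves, against 47 of 1853 neighbours of all intermediate tiles. These 12 formed 6 pairs: in Sdk2 on chromosome 11, at Commd1 and Zrsr1, in Pdzd2, at chr5:104149412-104149765 away from genes, at Igf2r and Airn, and at Gm7993. The longest, in Sdk2, spanned 1110 bp with 6 sites, and the pair with most sites, 41 over 984 bp, was at Commd1 and Zrsr1. The 310 genes within 1 kb of a lower tile included 20 with more than 1, of which Igf2r, Airn and Septin9 had 3 each.

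Imprinted genes held 13 lower tiles, among them the one with the largest difference. They were 28.9% of the 45 intermediate tiles at genes of a list of imprinted genes, against 4.4% of all intermediate tiles. Of the 45, 36 were lower in HFD by any amount, against 5088 of all 9031, and none was higher by 8 points, against 1.52% of all. The median difference over the 45 was -4.34 points, against -0.49 over all intermediate tiles. The 13 tiles held 183 sites, had HFD levels of 26.5 to 73.1% and RD levels of 35.9 to 82.6%, and in 7 of them the diets did not overlap, as in 54 of all 397 lower tiles (13.6%) and 0.797% of intermediate tiles. Among tiles with 10 or more sites, 9 of 14 at imprinted genes were lower tiles (64.3%), against 12 of 426 elsewhere (2.82%). The list was written when results of these data at several of its genes were known, so its share is a description.

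**Figure D4:**
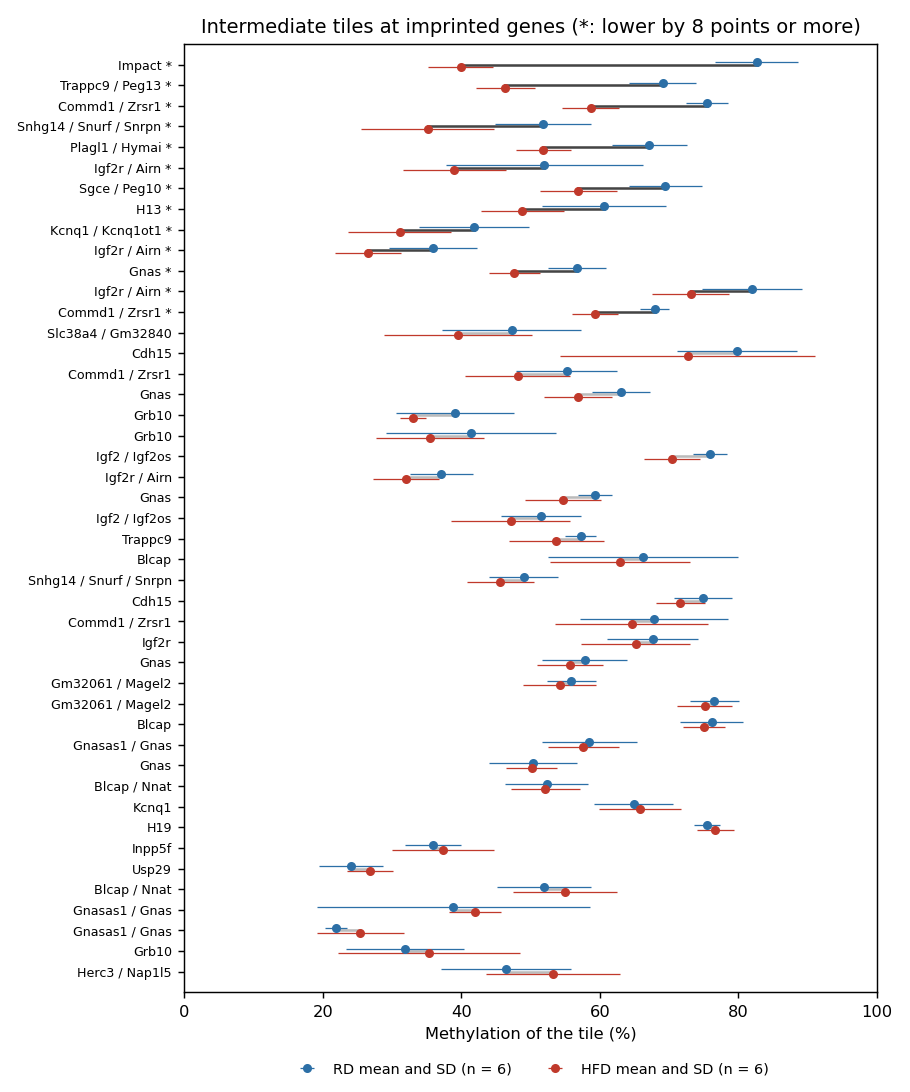
Methylation in percent (horizontal axis) of the 45 intermediate tiles at genes of the imprinted list, 1 row per tile, as the mean and SD of the 6 RD (blue) and 6 HFD (red) samples. An asterisk marks the 13 lower tiles. The rows run from the Impact tile, at 39.9% in HFD and 82.6% in RD, down to tiles that were higher in HFD, none of them by 8 points.

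The tile with the largest difference of all lay inside Impact at chr18:12973219-12973470. Impact is expressed from the paternal chromosome and encodes an inhibitor of the translation-control kinase GCN2. Its 16 sites had a mean of 33.9% at the lowest, 39.2% at the median and 45.5% at the highest in the HFD samples, and of 74.7% at the lowest, 83.2% at the median and 90.3% at the highest in the RD samples. The diets were far apart, with 29.2 points between the highest HFD and the lowest RD sample. The means were 39.9% ± 4.70 (SD, n = 6) in the HFD samples, against 82.6% ± 5.99 (SD, n = 6) in the RD samples, a difference of -42.7 percentage points, which was -39.6 in females and -48.5 in males. Every one of the 16 sites was lower, by 37.3 to 46.9 points, and at each of the 16 the diets did not overlap. Of all lower tiles 13.6% were without overlap, and of intermediate tiles 0.797%. For single sites no such share was computed. The sites come from the same animals in a tile chosen by its difference, so their counts are a description.

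Peg13, a noncoding RNA made from the paternal chromosome, lies within Trappc9, whose product is a subunit of a vesicle-trafficking complex. The tile there (chr15:72809880-72809945, 6 sites) had 38.7% at the lowest, 47.1% at the median and 50.5% at the highest in HFD, and 61.8% at the lowest, 68.7% at the median and 75.4% at the highest in RD. Its means were 46.4% ± 4.26 (SD, n = 6) in the HFD samples, against 69.1% ± 4.81 (SD, n = 6) in the RD samples. The diets did not overlap in the tile or at any of its 6 sites, whose differences were within -22.2 to -23.2 points. As at Impact, the count of sites is a description.

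Zrsr1, a retrogene for a splicing factor, sits in an intron of Commd1, which encodes a protein of copper and NF-kappa-B regulation, and only its paternal copy is active. The tile at chr11:22972500-22972993 held 31 sites, the most of any lower tile at an imprinted gene. It measured 54.7% at the lowest, 58.4% at the median and 63.3% at the highest in HFD, and 70.02% at the lowest, 75.7% at the median and 78.5% at the highest in RD, without overlap. The tile next to it (chr11:22972010-22972484, 10 sites) was at 59.3% ± 3.33 (SD, n = 6) in the HFD samples, against 67.9% ± 2.05 (SD, n = 6) in the RD samples, also without overlap. In the first tile all 31 sites were lower, 25 of them by 8 points or more. The 15 of its sites that lie in the Commd1 window printed above had a larger gap between the diets than the tile as a whole. A pair of further intermediate tiles at the same genes was lower by less than 8 points.

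Plagl1 encodes a zinc-finger protein that restrains cell growth. Its tile (chr10:13090623-13090814) measured 44.3% at the lowest, 52.7% at the median and 54.98% at the highest in HFD, and 61.6% at the lowest, 66.3% at the median and 76.3% at the highest in RD. No HFD sample reached the lowest RD sample. The tile at Peg10 and Sgce (chr6:4747355-4747490, 13 sites), a retrotransposon-derived gene needed in the placenta and the gene of epsilon-sarcoglycan, was at 47.95 to 63.5% in HFD and 64.6 to 79.1% in RD. The tile in Gnas (chr2:174328544-174328781, 25 sites), which encodes the stimulatory G-protein subunit, was at 42.5 to 51.1% in HFD and 52.6 to 62.9% in RD. In both the diets were separate, by 1.14 and 1.44 points. The other intermediate tiles at Gnas were not lower tiles and had differences from -6.17 to 3.47 points.

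Other imprinted tiles overlapped between the diets. At Snrpn and Snurf, whose promoter carries the imprint of the Prader-Willi domain, the lower tile (chr7:60005043-60005229, 9 sites) was at 22.2 to 50.4% in HFD and 41.5 to 58.1% in RD. Another intermediate tile at these genes (chr7:60004853-60004901) had a difference of -3.40 points. Igf2r encodes the receptor that clears insulin-like growth factor 2, and the noncoding RNA Airn silences it on the paternal chromosome. Of the 3 lower tiles there, that at chr17:12741590-12741750 had an RD SD of 14.2 points: RD female 1 and RD male 2 were at 67.5 and 68.7%, while RD female 3, RD female 4 and RD male 1 were at 46.9, 39.05 and 35.2%, inside the HFD range of 26.1 to 47.2%. The other 2, next to each other at chr17:12769266-12769577, had means of 73.1 and 26.5% in HFD and 81.98 and 35.9% in RD. Thus neighbouring tiles of this locus stood at a high and a low level, and both were lower in HFD. Further intermediate tiles at Igf2r had smaller differences, of -5.07 and -2.47 points. The tile at H13 (chr2:152706301-152706336), the gene of a signal peptide peptidase, was at 48.8% ± 5.97 (SD, n = 6) in the HFD samples, against 60.6% ± 8.93 (SD, n = 6) in the RD samples. That at Kcnq1 and Kcnq1ot1 (chr7:143295502-143295618), a potassium channel of cardiac repolarisation and the noncoding RNA that silences its domain, was at 31.1% ± 7.46 (SD, n = 6) in the HFD samples, against 41.8% ± 7.96 (SD, n = 6) in the RD samples. Another intermediate tile in Kcnq1 (chr7:143333151-143333286) was at 65.8% in HFD and 64.9% in RD.

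Outside the imprinted list, the largest differences were of more than 1 kind. In some both diets were tight and apart. A tile on chromosome 6 (chr6:72277097-72277164, 4 sites), 22169 bp from the nearest gene, Gm30782, was at 29.4% at the lowest, 41.3% at the median and 43.7% at the highest in HFD, and 60.8% at the lowest, 67.7% at the median and 74.8% at the highest in RD. The tile in Mindy4 (chr6:55294855-55294925, 7 sites), a deubiquitinase gene, was at 20.1% at the lowest, 27.2% at the median and 31.5% at the highest in HFD, and 47% at the lowest, 52.2% at the median and 65.4% at the highest in RD. That in Prorp (chr12:55321706-55321747, 5 sites), which encodes the nuclease of mitochondrial RNase P, was at 32.8% at the lowest, 39.8% at the median and 51.2% at the highest in HFD, and 57.5% at the lowest, 67.6% at the median and 75.2% at the highest in RD. In these 3 tiles the diets did not overlap, and the SD within a diet was at most 8.08 points.

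In others the RD animals were spread widely while the HFD animals were all low. In Snx20 (chr8:88627501-88627516, 5 sites), a sorting nexin gene, the HFD samples were at 2.16 to 15.8%, and the RD samples at 22.1% at the lowest, 43.1% at the median and 74.5% at the highest. At Ppp1r15b (chr1:133131102-133131173, 10 sites), whose product directs a phosphatase to the translation factor eIF2-alpha, the HFD samples were at 4.90 to 12.4% and the RD samples at 3.91% at the lowest, 49.4% at the median and 66.6% at the highest. RD female 4, at 3.91%, was below every HFD sample there. The RD SDs of these tiles were 22.8 and 24.02 points, against 5.61 and 2.71 in HFD. Their differences, -36.2 and -34.9 points, were thus between a tight HFD group and a widely spread RD group, separate at Snx20 and overlapping at Ppp1r15b. Leaving out 1 sample moved the Ppp1r15b value to between -30.1 and -42.6.

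The remaining tiles among the 12 with the largest differences overlapped or were spread in HFD. A tile on chromosome 12 (chr12:69422868-69422941), 38855 bp from the nearest gene, had RD samples from 20.02 to 77.04% and HFD samples from 20.2 to 54.8%. In Dlgap5 (chr14:47395905-47395960), a gene of the mitotic spindle, HFD was at 29.1 to 53.5% and RD at 40.3 to 77.8%. At chr4:116177397-116177449, 3100 bp from the nearest gene, HFD female 3 was at 75.8%, within the RD range of 70.2 to 81.1%, and the other HFD samples at 41.3 to 51.4%. Gm7993 carried a pair of adjacent lower tiles with 24 sites in all, and HFD male 4, at 72.4% in the first (chr5:95973949-95973999), overlapped the RD range of 50 to 81.05%.

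**Figure D5:**
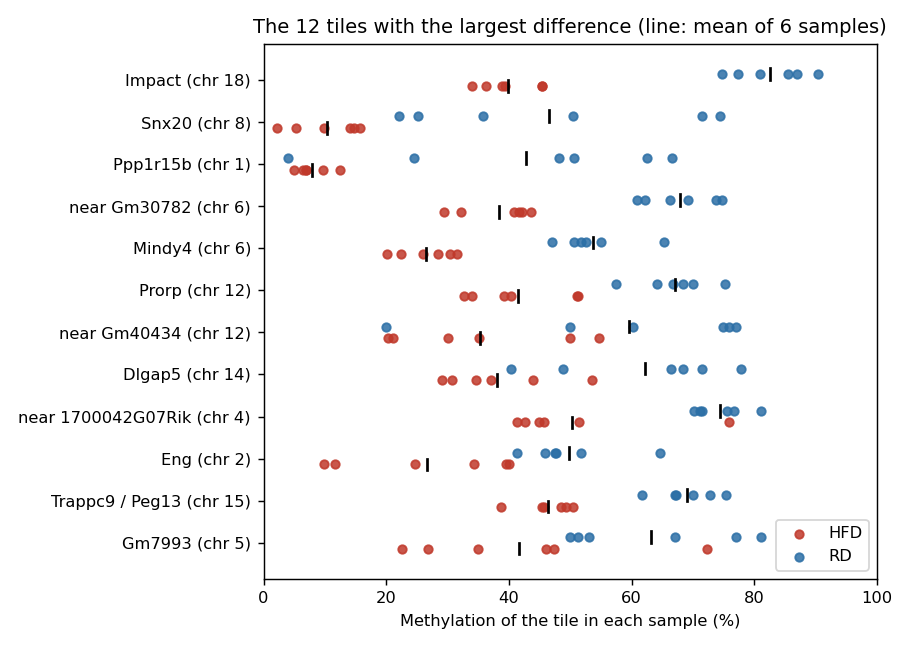
Methylation in percent of each sample (points) in the 12 tiles with the largest difference, with a line at the mean of the 6 samples of a diet. The diets are separate in the Impact, Snx20, chromosome 6, Mindy4, Prorp, Eng and Peg13 rows. RD points are spread from 22.1 to 74.5% at Snx20 and from 3.91 to 66.6% at Ppp1r15b.

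The heart cell marker lists had few intermediate tiles. Of 5 at endothelial markers 2 were lower tiles, where the share over all intermediate tiles was 4.4%: Eng, the gene of the TGF-beta co-receptor endoglin, and Esam, an adhesion molecule of endothelial junctions. In Eng (chr2:32656207-32656274, 4 sites) the HFD samples were at 9.93% at the lowest, 29.5% at the median and 40% at the highest, and the RD samples at 41.3% at the lowest, 47.6% at the median and 64.7% at the highest. The diets were separate by 1.34 points although the HFD values were widely spread. At Esam (chr9:37528142-37528206, 5 sites) HFD was at 15.2 to 25.2% and RD at 28.6 to 38.9%. The other 3 endothelial tiles, at Pecam1 and at 2 other places in Eng, had differences of -4.18, -0.635 and 3.39 points. Among 9 tiles at cardiomyocyte markers 1 was a lower tile and 4 were lower by any amount, against 5088 of all 9031 intermediate tiles. It was at Myh6, the gene of alpha-myosin heavy chain, and Cmtm5 (chr14:54942426-54942497), with 59.6% ± 9.60 (SD, n = 6) in the HFD samples, against 68.7% ± 5.62 (SD, n = 6) in the RD samples. Of 3 tiles at fibroblast markers and 2 at blood markers none was a lower tile, and no smooth muscle or pericyte marker had an intermediate tile. The part of cell mixture in the lower tiles was not tested.

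The lists of heart muscle, metabolism, development and immunity each had 1 to 5 lower tiles. The heart muscle list had 3 among 39 intermediate tiles (7.69%, against 4.4% of all intermediate tiles), at Casq2, Kcnq1 and Myh6. In Casq2 (chr3:102099450-102099488, 3 sites), which encodes the calcium-storing protein calsequestrin, HFD was at 33.5 to 49.2% and RD at 40.4 to 66.5%, with means of 41.3 and 54.8%. The list for fat and glucose metabolism had 4 among 32 (12.5%, against 4.4%), of which 3 were the Igf2r tiles above. The fourth was at Srebf1 (chr11:60212019-60212077, 3 sites), a transcription factor of fat synthesis, at 32.9% ± 5.37 (SD, n = 6) in the HFD samples, against 42.6% ± 4.62 (SD, n = 6) in the RD samples, where 2 HFD samples lay within the RD range.

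Among 83 intermediate tiles at developmental transcription factors, 5 were lower tiles (6.02%, near the 4.4% of all intermediate tiles) and 2 were higher by 8 points, as were 1.52% of all. Gata3 had 2, of which that at chr2:9867226-9867257 was at 26.3% ± 9.86 (SD, n = 6) in the HFD samples, against 41.8% ± 8.94 (SD, n = 6) in the RD samples. Nkx6-3 (chr8:23155507-23155560) was at 51.3% ± 6.94 (SD, n = 6) in the HFD samples, against 64.1% ± 8.22 (SD, n = 6) in the RD samples, and Sox10 and Foxf1 had 1 each with differences of -8.63 and -8.21 points. All of them overlapped between the diets. The immune list had 1 of 16 (6.25%), at Nfkbil1 in the major histocompatibility region (chr17:35220728-35220965, 15 sites). There the HFD samples were at 13.9 to 20.1% and the RD samples at 23.6 to 34.5%, without overlap, and each of the 15 sites was lower. The median difference over all tiles of these 4 lists was between -1.32 and -0.32 points, near that of all intermediate tiles.

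The 12 lower tiles with 10 or more sites outside the imprinted list rest on more sites than the others; they were singled out after their values had been seen. At Basp1 (chr15:25364226-25364419) all 22 sites were lower by 9.86 to 20.7 points, and the HFD samples were at 41.5 to 63.5% against 60.8 to 84.5%. Dmrta2 (chr4:109982534-109982581, 10 sites) was at 44 to 80.1% in HFD and 62 to 86.1% in RD, and Ccm2l (chr2:153071937-153071992, 12 sites) at 40.3 to 62.8% in HFD and 50.5 to 76.8% in RD. Of the 12, Nfkbil1 and Ip6k3 (chr17:27154148-27154482, HFD 53.2 to 62.2%, RD 62.7 to 72.7%) were without overlap, where 13.6% of all lower tiles and 0.797% of intermediate tiles were. Boll (chr1:55362724-55362791, 11 sites) was at 43.05 to 57.9% in HFD and 48.1 to 64.6% in RD, and Dll3 (chr7:28294645-28294975, 25 sites), a Notch ligand gene, at 13.2 to 34.2% in HFD and 13.2 to 48.6% in RD. The 16-site tile at Gm7993 (chr5:95974005-95974108) was at 25.95 to 49.96% in HFD and 35.2 to 79.2% in RD, and Ppp1r15b is given above. In several of the 12, 1 or a few RD animals stood high. Fkbp5 (chr17:28486002-28486494, 22 sites), the gene of a co-chaperone of the glucocorticoid receptor, had RD samples at 4.47% at the lowest, 22.4% at the median and 64.03% at the highest, and HFD samples at 7.26% at the lowest, 13.8% at the median and 36.7% at the highest. Purb (chr11:6475832-6475961, 34 sites, the most of any lower tile) had 14.4 to 60.9% in RD and 9.10 to 39.9% in HFD, and the tile at Map3k1 and Gm15327 (chr13:111808736-111808926, 28 sites) had 4.08 to 57.3% and 4.14 to 39.7%. At Fkbp5 and at Map3k1 every HFD sample lay within the RD range and 4 of the 6 RD samples within the HFD range, and at Purb 5 of the 6 RD samples did.

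Lower tiles in a promoter window included several outside imprinted loci. The Rgs3 tile (chr4:62619581-62619636), at a regulator of G-protein signalling, was at 15.4% at the lowest, 23.3% at the median and 28.1% at the highest in HFD, and 35.6% at the lowest, 42.9% at the median and 52.7% at the highest in RD. Among the 16 lower tiles with sites in a window of the RefSeq table, the Rgs3 tile had the largest difference, -19.9 percentage points. Its diets did not overlap. In the Cavin4 tile (chr4:48663513-48663583, 5 sites), at the gene of a caveolar protein of heart and skeletal muscle, HFD was at 56.7 to 80% and RD at 75.2 to 91.8%. Mcf2l (chr8:12926192-12926466, 7 sites) was at 36.4 to 49.9% in HFD and 53.3 to 60.1% in RD, without overlap, and Ece1 (chr4:137920758-137920993, 5 sites), the gene of the endothelin-converting enzyme, at 24.1 to 50.4% in HFD and 46.5 to 56.5% in RD. Mcf2l and Ece1 each had a second lower tile farther inside the gene, with differences of -9.10 and -8.23 points. Expression is not analysed here.

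Genes with more than 1 lower tile also included Septin9, a cytoskeletal septin, with differences of -12.7, -11.98 and -8.17 points at tiles up to 87 kb apart. Nrp2, a receptor for semaphorins and vascular growth factors, had -15.4 and -9.91, and Col4a1, a basement membrane collagen, -13.1 and -8.29. In all of these the diets overlapped.

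No lower tile passed the test for a difference between females and males. The diet difference within each sex is part of the difference that the rule used, so its direction is largely fixed. It was below 0 in both sexes in 380 of the 397 tiles, and in 2931 of the 9031 intermediate tiles. It reached 8 points in both sexes in 175, in females only in 122 and in males only in 96, against 178, 428 and 664 over all intermediate tiles. The medians over the lower tiles were -10.8 points in females and -10.5 in males. These counts rest on 2 RD males and 3 HFD males. Limma with diet and sex as terms, fitted to 23791 tiles with adjustment by the Benjamini-Hochberg method, found a sex difference in 4 tiles (0.0168%), none of them a lower tile. At an unadjusted p under 0.05 there were 33 lower tiles (8.31%), against 5.56% of all tiles tested. Among the lower tiles, the smallest sex p belonged to a tile 16447 bp from the nearest gene (chr5:119502138-119502348), at 73.7% in the females and 84.8% in the males (limma adjusted p = 0.788). Next came Gm7318 (61.8 and 43.3%) and Rnf212 (50.98 and 58.8%), with the same adjusted p.

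Whether the diet difference itself differed between the sexes was tested with the diet-by-sex interaction. Limma found it in none of the 23791 tiles (0%), with 1210 at an unadjusted p under 0.05, and 24 of the lower tiles (6.05%) were among these. The smallest interaction p values of lower tiles were at chr14:21962863-21962928, Nav1 and Pdzd2, each with an adjusted p of 0.931. In Nav1 (chr1:135543545-135543616) the difference was -19.1 points in females and -2.61 in males, in Pdzd2 (chr15:12436084-12436497) 3.02 and -25.2, and in the tile on chromosome 14 6.63 and -25.9. None of these passed the adjustment, and a count of 0 does not show that the diet difference was alike in both sexes. The diet term of the same fit passed in 7 tiles, all lower in HFD (0.0294%), of which 6 were lower tiles: those in Impact, Mindy4 and Prorp, at Peg13, the 31-site tile at Zrsr1 and the tile near Gm30782. The rule used that contrast, so nothing is read from this count.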

How the data were processed

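RRBS libraries from the left ventricle of 12 mice were processed by the authors with FastQC, Trim Galore, Bismark 0.19 and limma against mm10, per the submitters' processing notes. The authors deposited 1 table of percent methylation for 421177 CpG positions, without read counts; a coverage minimum is not given in the sources used here. Every value column matched 1 sample, and the number of unmatched columns was 0. Of the table positions inside RefSeq promoter windows, 99.98% fell on a CpG of GRCm38.p6, so positions are given on that build.

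Sites on autosomes with values in all 12 samples (306534) were averaged per sample in 500 bp tiles (position divided by 500, rounded down) with 3 or more sites. The rule for lower tiles is given in the first paragraph of the report. Sex, interaction and diet were fitted with limma 3.58.1 (R 4.3.3) on log2((rate + 0.05)/(1 - rate + 0.05)) over 23791 tiles with a mean of 5 to 95%, two-sided, with a threshold of 0.05 on Benjamini-Hochberg adjusted p. The fits were tested on simulated data, in which the interaction term was less sensitive than the diet and sex terms. P-values measure the spread between these animals, some of which may share a mother.

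The lower tiles and all gene lists were chosen with earlier results of these data known. Named were the 12 tiles with the largest difference and those called for diet by limma. From each gene list except the cell marker lists, the 2 largest were named. Also named were the 3 on each side of the limit, the 3 smallest sex and interaction p and the 3 longest runs. Others were chosen after their values were seen. Genes came from a RefSeq table of GRCm38.p6, in which a tile belonged to a gene it overlapped or lay within 1 kb of. Alternatives changed the grid, tile size, site minimum, limits, missing values, strands, sex balance, scale and samples. Figures were drawn with matplotlib 3.10.9.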

Additional observations from a re-analysis of the deposited data

Results flagged for a closer look

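Among 68 groups of 6 values (each diet in the 32 named lower tiles, and the sample means over the lower tiles and over the other intermediate tiles), 4 had 1 sample far from the other 5, where chance alone gives about 3.4. In the tile at chr4:116177397-116177449, HFD female 3 was at 75.8% and the other HFD samples at 41.3 to 51.4%. At the end of the Sdk2 pair (chr11:113803612-113803681), HFD female 2 was at 60.7% and the others at 28.8 to 40.7%. In the tile at chr5:119502138-119502348, RD male 2 was at 91.8% and the other RD samples at 80.01 to 84.1%. At Nfkbil1 (chr17:35220728-35220965), RD male 2 was at 34.5% and the others at 23.6 to 27.1%.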

How the results depend on the processing

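None of the 32 named tiles changed direction under the alternatives run for them, but without RD female 1, RD female 2 and RD male 2, 6 of the 397 lower tiles were no longer lower in HFD. The number of lower tiles, 397, became 114 with 5 or more sites per tile, 752 with a limit of 6 points and 200 with a limit of 10; by construction these admit fewer or more tiles. Under 6 other planned settings (a moved grid, 250 and 1000 bp tiles, a mean of 30 to 70%, merged strands, sex-balanced differences) it was 293 to 417, with missing values allowed 558, and without 1 sample 386 to 470. The 2 settings chosen after seeing the data, given in the report, left 297 and 391. Without 1 sample, 319 to 369 of the original 397 still met the rule.

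Tiles passing limma's diet term, 7, became 17 on untransformed percentages, 19 with a mean of 20 to 80%, 16 with 5 or more sites, 13 without the sex term and 3 to 11 without 1 sample. For sex, 4 became 1 on untransformed percentages, 0 with an offset of 0.01 (1288 at an unadjusted p under 0.05), 1 with a mean of 20 to 80%, 1 with 5 or more sites and 0 to 5 without 1 sample. The interaction gave 0 under every setting run. With the replicate number as a block, diet gave 3 and sex 0 calls (1407 at an unadjusted p under 0.05). Same-numbered animals of the 2 diets correlated at -0.0467 to 0.0113. The pairs are few, and the 2 RD males deviate in opposite directions by construction. These values thus cannot tell whether the numbers pair the animals. The cause of these shifts was not tested.

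The share within 1 kb of a gene end, 20.7%, was 28.7% within 2 kb and 11.6% with protein-coding genes only, and the share inside a gene was 67.5% with coding genes only. For 32 named tiles, 1 of 413 alternative values moved by at least 1 SD. Most of these values came from leaving out 1 of the 6 samples of a diet. That cannot move a difference by 1 SD, so the count is no measure of stability. Unknown depth limits every tile, those with 3 sites among them, since the precision of a single percentage cannot be computed.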
